A study of Lymantria dispar dispar and Lymantria dispar asiatica with 30 samples.

Results

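Catalase is a heme enzyme that splits hydrogen peroxide into water and oxygen. In most animal cells it resides in peroxisomes, organelles in which oxidases of fatty acid breakdown release hydrogen peroxide, while superoxide dismutases produce further peroxide from superoxide. Peroxiredoxins and peroxidases also consume hydrogen peroxide, but do so by oxidising another molecule. The 2 gene models described here are ones that the study named as catalases in spongy moth (Lymantria dispar) pupae. Descriptions were used for 617 of the 19654 genes measured. Whether others of these genes encode catalases is therefore not known here. Lda.20862's description is catalase-like, and Lda.20867's is peroxisomal catalase 1-like. Both were chosen by their transcript levels in these same samples, on the strain by day pattern and on high abundance in Asian pupae of day 8. In that order, they are called the catalase-like gene and the peroxisomal catalase gene from here on. Their levels over strains and days are therefore given as a description, without a test.

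RNA was sequenced from 30 individual whole female pupae, 3 for each of 2 strains on days 1, 3, 5, 8 and 11 after pupation. Asian spongy moth (ASM) pupae came from a single colony coded RM, reared on a larval diet with 0.21 g of iron phosphate per litre. European spongy moth (ESM) pupae came from a single colony labelled CT, reared on a diet with 0.13 g per litre. No treatment or genetic modification was applied, and the same reference genome, that of ASM, was used to align the reads of both strains. Strain, colony, dietary iron and the match of the reads to the reference therefore cannot be told apart. In whole pupae, a smaller share of expressing cells and less transcript per cell cannot be told apart either.

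The libraries held 2638192 to 10786320 reads assigned to genes, with a median of 5175323. On day 8 they held 6111280 to 9621088 reads in ASM and 3138978 to 6694937 in ESM pupae. Levels are given as normalised counts, which are read counts recovered from the deposited values and divided by the size factor of each library. Differences that were tested are given in VST units, the variance-stabilised scale of the deposited values, on which a doubling is 0.849 units at a normalised count of 10, 1.51 at 100, 1.24 at 1000 and 0.652 at 10000. A count of 0 was taken to allow up to 3 reads in a library, or 1.46 to 6.75 normalised counts depending on its depth. Such limits, and the intervals below, cover counting error only. Of 2 storage proteins of the insect fat body, sex-specific storage-protein 1 averaged 0.414 to 95.7 normalised counts over the 10 groups and acidic juvenile hormone-suppressible protein 1 2.22 to 76.6.

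Transcripts of both catalase genes were read at high levels in 1 of the 10 groups, the ASM pupae of day 8. In these 3 pupae the catalase-like gene stood at 4571, 1037 and 733 normalised counts, from 5221, 1559 and 957 reads. The mean was 2114 ± 2133 (SD, n = 3), and the highest pupa was 6.23 times the lowest. The peroxisomal catalase gene stood at 1537, 1209.6 and 302 in the same pupae, from 1756, 1818 and 394 reads, with a mean of 1016 ± 640.0 (SD, n = 3). Replicate 1 was the highest and replicate 3 the lowest pupa for both genes. Together these 3 pupae gave 99.2% of all 7797 reads of the catalase-like gene and 94.7% of all 4189 reads of the peroxisomal catalase gene in the 30 libraries.

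Before day 8, no read of either gene was found in any ASM pupa. The 9 ASM libraries of days 1, 3 and 5 held 47425486 reads in all, and every one of them was at 0 for both genes. With 3 reads allowed per library, the day 8 mean of the catalase-like gene was at least 572-fold higher than that of day 1, at least 800-fold higher than that of day 3 and at least 708-fold higher than that of day 5. For the peroxisomal catalase gene the corresponding bounds were 275-fold, 385-fold and 340-fold.

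By day 11 the transcripts had again reached the limit of detection in ASM pupae. The catalase-like gene had no reads in the 3 pupae of that day, which places the day 8 mean at least 790-fold higher. The peroxisomal catalase gene had 2 reads in all, 1 in each of replicates 1 and 2. The ratio of day 8 to day 11 for this gene was 2140, with an exact 95% counting interval of 592 to 17679.

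In ESM pupae of day 8, the catalase-like gene stood at 3.04, 24.4 and 10.5 normalised counts, from 2, 25 and 15 reads. The mean was 12.7 ± 10.8 (SD, n = 3). The peroxisomal catalase gene stood at 15.2, 176 and 7.73, from 10, 181 and 11 reads, with a mean of 66.4 ± 95.3 (SD, n = 3). Replicate 2 was the highest ESM pupa for both genes, and for the peroxisomal catalase gene it held most of the group's 202 reads.

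The ratio of the ASM to the ESM mean on day 8 was 167 for the catalase-like gene. Its lowest ASM pupa stood 30.1 times above the highest ESM pupa. For the peroxisomal catalase gene the ratio of means was 15.3, and the lowest ASM pupa stood 1.71 times above the highest ESM pupa. This ratio depended on the ESM pupa of replicate 2, without which it was 88.6, and the ratio of medians was 79.5. For the catalase-like gene the ratio was 311 without that ESM pupa, 70.0 without ASM replicate 1 and 98.4 as a ratio of medians. Every ASM pupa lay above every ESM pupa on day 8 for both genes, which was also the case for 15.8% of the 19652 genes tested. Since this contrast served to choose the genes, nothing is read from that count.

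**Figure D1:**
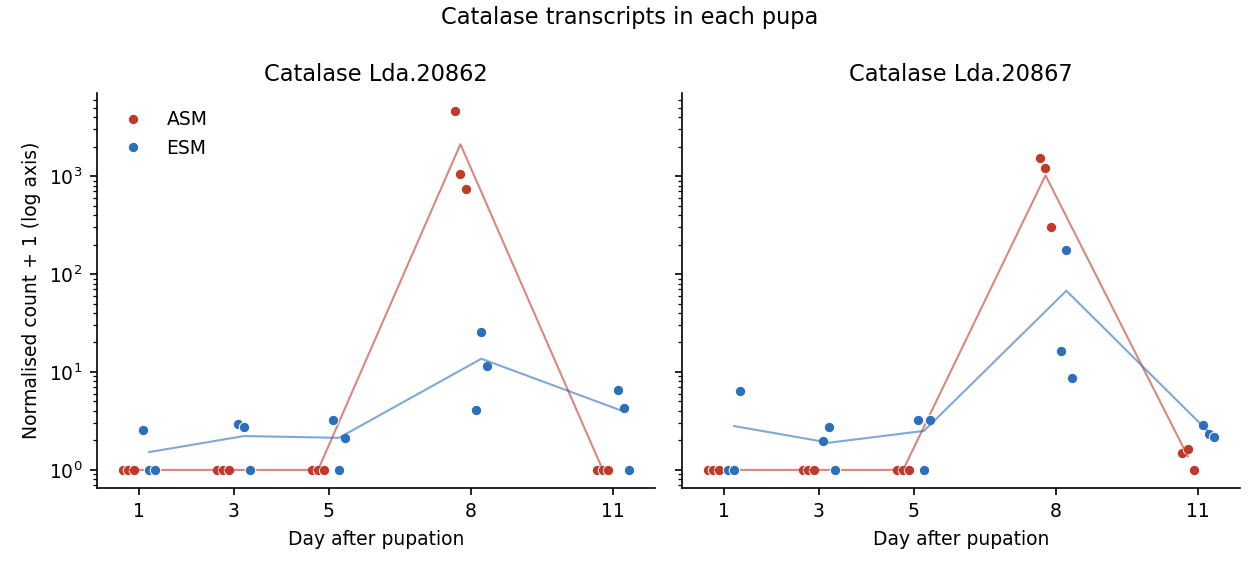
Normalised count plus 1 (log axis) of the catalase-like gene (left) and the peroxisomal catalase gene (right) in each pupa against the day after pupation. Points are single pupae, 3 per strain and day, and lines join group means. ASM pupae (red) lie at 1, that is at a count of 0, on days 1, 3 and 5, and between 302 and 4571 normalised counts on day 8. ESM pupae (blue) reach at most 176.

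The 10 groups could be ordered only in their upper part. For the catalase-like gene the order of means was ASM day 8, ESM day 8 and ESM day 11 (2.95 ± 2.78, SD, n = 3). The ESM groups of days 8 and 11 overlapped, with ranges of 3.04 to 24.4 and 0 to 5.53. For the peroxisomal catalase gene the order was ASM day 8, ESM day 8 and ESM day 1 (1.80 ± 3.12, SD, n = 3), without overlap between them. Each of the other groups had at most 2 reads in any library, so they could not be ordered at this depth.

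A few catalase reads were found in ESM pupae outside day 8. Over the 12 ESM libraries of the other days, the catalase-like gene had 18 reads and the peroxisomal catalase gene had 17 among 53722408 reads in all, and 7 and 8 of these libraries held at least 1. The 12 ASM libraries of the other days held 0 and 2 reads among 68012027, in 0 and 2 libraries. The most reads in an ESM library outside day 8 were 6 for the catalase-like gene, on day 11, and 5 for the peroxisomal catalase gene, on day 1. In ESM pupae, too, most catalase reads came from day 8, at 70.0% of 60 reads for the catalase-like gene and 92.2% of 219 reads for the peroxisomal catalase gene. From summed reads, the ESM level of the peroxisomal catalase gene on day 8 was 39.3 times that of day 5 (exact 95% counting interval 13.2 to 192) and 46.9 times that of day 11 (21.2 to 129). That of the catalase-like gene was 12.2 times that of day 5 (3.18 to 104) and 5.32 times that of day 11 (2.69 to 11.4). These intervals leave out the spread between pupae, which on day 8 was 22.8-fold from lowest to highest ESM pupa for the peroxisomal catalase gene. For the catalase-like gene the lowest of these pupae had 2 reads, so no such fold is given.

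The proportion of one catalase to the other differed between pupae. Gene lengths were not used here, so the ratio of reads is compared between libraries only, where library scaling does not enter. On day 8, ASM pupae had 2.97, 0.858 and 2.43 reads of the catalase-like gene for each read of the peroxisomal catalase gene. ESM replicates 2 and 3 had 0.138 and 1.36, and replicate 1 had too few reads for a ratio. The values of both strains overlapped.

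Whether both genes moved together between pupae of the same group was tested on deviations from the group means of VST values. These deviations are not fully independent of the choice of the genes, since the study's p-values depend on the spread within groups. Over 30 libraries, Pearson's r was 0.66 (two-sided permutation within groups, 100000 draws, p = 0.141) and Spearman's rho 0.55 (p = 0.0376, or 0.0753 adjusted over both coefficients). Without the libraries farthest from the median of the catalase-like gene, ASM replicate 1 and ESM replicate 2 of day 8, r was 0.19 (permutation p = 0.574) and rho 0.28 (permutation p = 0.379). Both coefficients were lower without them. With all libraries, neither p-value adjusted over both coefficients was under 0.05. Leaving out ESM replicate 2 of day 8 alone gave an r of 0.50 (permutation p = 0.440) and a rho of 0.23 (permutation p = 0.439), while leaving out ASM replicate 1 of day 8 alone gave 0.65 (permutation p = 0.173) and 0.63 (permutation p = 0.0216). In the 15 ESM libraries alone r was 0.64 (permutation p = 0.347). With the day 8 libraries left out, r was 0.21 (permutation p = 0.492) and rho 0.42 (permutation p = 0.209). None of the remaining libraries held more than 6 reads of either gene. The ASM libraries alone allowed no test, since the catalase-like gene was at 0 in all of them but the 3 of day 8.

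The genes whose levels followed the catalases most closely were then sought over all 30 libraries, by Pearson's r with the mean of both standardised catalase profiles. The catalases themselves had an r of 0.96 with each other. The 10 highest genes had r of 0.975 to 0.989, and only 1 of them carries a description in the study's lists that were used. That description is an uncharacterized protein. Its name here, osiris 18, is a putative annotation from the study's text, as are the names of the Osiris genes below. These correlations across libraries are a description, since all points share the contrast of a single group with the rest. In the ASM libraries alone the 10 genes had r of 0.988 to 0.997, and in the ESM libraries alone 0.723 to 0.936. Their ASM to ESM ratio on day 8 ran from 35.4 to 230, and none exceeded 15.9 normalised counts on another day.

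The gene whose identifier follows that of the catalase-like gene, which carries no description, had the highest r (0.989). It stood at 7363, 1329 and 1003 normalised counts in ASM and at 4.56, 78.9 and 9.84 in ESM pupae of day 8. Replicate 1 was again the highest ASM pupa and replicate 2 the highest ESM pupa. Over the 10 genes, the ASM pupa of replicate 3 was the lowest of its group for all 10 and the ESM pupa of replicate 2 the highest of its group for all 10, as for the catalases. The ASM pupa of replicate 1 was the highest of its group for 8 of the 10. The correlations that chose these genes included these pupae. A shared order of pupae is thus favoured by the choice, and nothing is read from it.

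Among described genes, the 5 highest were osiris 18, choline dehydrogenase, osiris 20, a further Osiris gene and a further gene named osiris 18. Their r was 0.975, 0.966, 0.966, 0.890 and 0.863, and their ranks among all genes tested were 9, 16, 17, 46 and 59. Only 617 of the measured genes are described here, from the study's lists of candidate genes and expression results. That pool was thus partly chosen by expression in these same samples, and nothing is read from the names in it. Osiris genes form a family of insect membrane proteins, some of which take part in cuticle formation in Drosophila. The osiris 18 gene with an r of 0.975 stood at 5069.5, 2635 and 449.7 normalised counts in ASM and at 0, 34.1 and 1.41 in ESM pupae of day 8. Choline dehydrogenase oxidises choline, the first step towards betaine. Its gene stood at 332, 214 and 421 in ASM and at 12.2, 36.1 and 5.62 in ESM pupae of day 8, and its lowest ASM pupa was replicate 2, unlike that of the catalases.

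**Figure D2:**
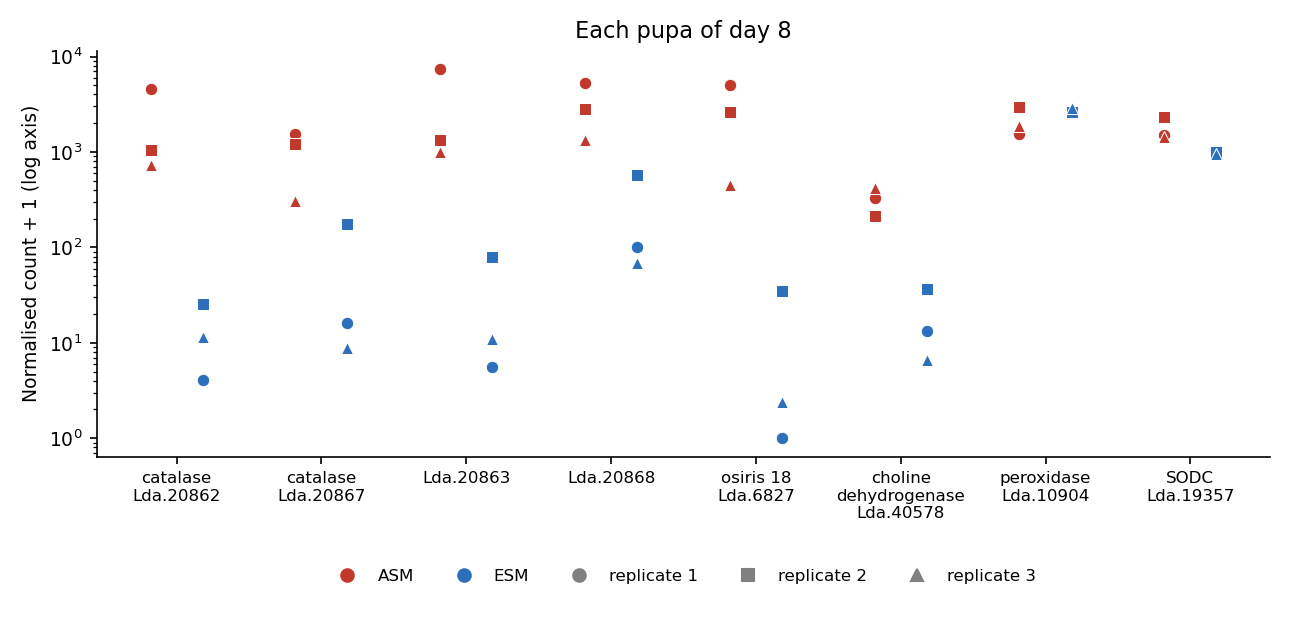
Normalised count plus 1 (log axis) on day 8 for the catalases, 4 genes of similar profile and 2 enzymes of peroxide and superoxide metabolism. Points are single pupae, ASM in red and ESM in blue, with a symbol for each replicate number. The catalases and the 4 genes of similar profile are higher in all 3 ASM pupae, and peroxidase overlaps between the strains. ESM replicate 2 (square) is the highest ESM pupa for the first 6 genes. Profiles were compared over these same pupae, which favours a shared order.

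Among 13 further measured genes with identifiers within 10 of a catalase, none of which is described, 2 were at 100 or more in every ASM pupa of day 8 and at 10 or fewer in ASM pupae of the other days. These were the genes whose identifiers each follow that of a catalase. The one that follows the peroxisomal catalase gene stood at 5257, 2837 and 1318 normalised counts in ASM and at 100.4, 579 and 68.2 in ESM pupae of day 8. The others did not share the pattern. One of them, for example, averaged 1788 to 4727 normalised counts in each of the 10 groups. Positions of these genes were not used here, so it is not known whether similar identifiers mean neighbouring genes, or whether similar sequences share reads.

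Transcripts confined to day 8 in ASM pupae were few. By limits set after the values had been seen, 25 genes stood at 100 or more normalised counts in every ASM pupa of day 8 and at 5 or fewer in every other ASM pupa. Both catalases were among them. Of the 25, 8 met the same limits in ESM pupae, or 32.0% of the ASM list and 66.7% of the 12 genes of the ESM list, and neither catalase did. Since the 25 genes were chosen by high levels in ASM pupae of day 8, a ratio of the ASM to the ESM mean above 1 is favoured by the choice, and the ratio serves here to rank them only. By this ratio, the catalase-like gene ranked 4 and the peroxisomal catalase gene ranked 9 of 25. The ESM pupa of replicate 2 was the highest of its group for 24 of the 25 genes, and the ASM pupa of replicate 3 the lowest of its group for 20. The ASM pupa of replicate 1 was the highest of its group for 11. The share of all genes with each of these orders was not computed, so nothing is read from these counts.

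**Figure D3:**
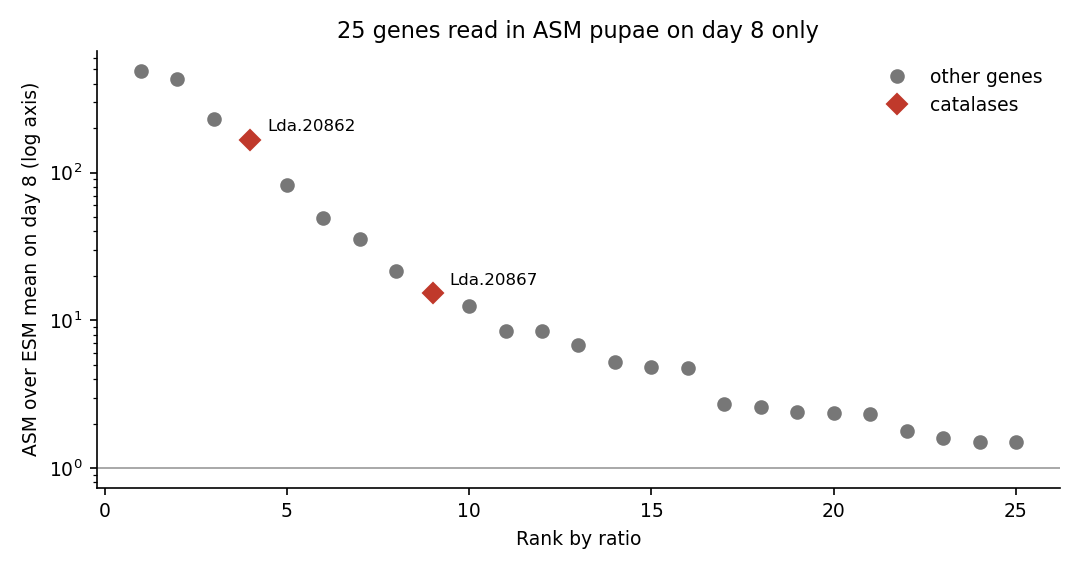
Ratio of the ASM to the ESM mean normalised count on day 8 (log axis) for the 25 genes read in ASM pupae on day 8 only, in order of the ratio. Diamonds are the catalases, at ranks 4 and 9 with ratios of 167 and 15.3, and the line marks a ratio of 1. The genes were chosen by high levels in ASM pupae of day 8, which favours points above the line.

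Of 5 genes in the cuticle list, 4 were read on day 8, with and without a difference between strains. The remaining gene, for a larval/pupal rigid cuticle protein, was at 0 in all 6 pupae. A gene described as a cuticle protein, a structural component of the insect exoskeleton, was at 0 on day 5 in both strains and at 701, 5245 and 4441 normalised counts in ASM and 870, 3698 and 1294 in ESM pupae of day 8. Its strain difference on day 8 was 0.56 VST units (standard error 0.51, limma, adjusted p = 0.607). Pupal cuticle protein C1B-like was at 1522, 19809.7 and 11135 in ASM and at 10908, 9968 and 13206 in ESM pupae, with a difference of -0.63 (standard error 1.14, adjusted p = 0.834). On day 11 this gene still averaged 5369 in ASM and 1061 in ESM pupae, unlike the catalases. Both genes described as tweedle motif 3, a further cuticle protein, were higher in ASM pupae of day 8. The differences were 4.32 (standard error 1.04) and 3.95 VST units (standard error 1.11). The study named both, and the first cuticle gene above, with genes that showed strain effects in these same libraries. No test is therefore given for both tweedle motif 3 genes, and that of the first cuticle gene is not independent of the choice. Both genes averaged more on day 5 than on day 8 in both strains. Outside the cuticle list, the cuticle protein tweedle motif 2 was 9.92 VST units higher in ASM pupae of day 8. The study named it with the catalases for this pattern, so no test is given for it. Unlike the catalases, tweedle motif 2 was also read on day 5, at means of 2051 in ASM and 3111 in ESM pupae. ASM replicate 1, the pupa with the most catalase transcripts, was the lowest ASM pupa for the first cuticle gene and for the C1B-like gene, but the highest for both tweedle motif 3 genes. ESM replicate 2, the ESM pupa with the most catalase transcripts, was the highest ESM pupa for the first cuticle gene and both tweedle motif 3 genes and the lowest for the C1B-like gene. Whether the stage of single pupae within day 8 has a part in the catalase levels was not tested.

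The other genes of peroxide handling, peroxisomes, iron, heme and NADPH that the study described were each tested with limma over all 19652 genes, at an adjusted p under 0.05. These 14 genes were flight candidates of the study. Peroxiredoxin-6, peroxidasin and PEX3 were candidates because of their pupal expression, so their calls are not independent of that choice. Over all days, 7 of the 14 were called between the strains, 5 higher and 2 lower in ASM, beside 23.4% of all genes tested. The median difference of the 14 was 0.33 VST units, and that of all genes 0.02. On day 8, 1 of the 14 was called, beside 6.36% of all genes, with a median difference of 0.29 for the list and 0.01 for all genes.

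Superoxide dismutases, which yield the hydrogen peroxide that catalase removes, were higher in ASM pupae. SODC stood at 1499.6, 2305 and 1426 normalised counts in ASM and at 948, 1009 and 961 in ESM pupae of day 8. The groups did not overlap, and the difference was 0.92 VST units (standard error 0.17, adjusted p = 0.00118), the call made on that day. Over all days the difference was 0.51 (standard error 0.08, limma, adjusted p = 2.45e-05). The study's own DESeq2 model did not call SODC for strain or for strain by day. SODM1 stood at 1409, 1481 and 1371 in ASM and at 1094, 829 and 1004 in ESM pupae of day 8. These groups did not overlap either, but the day 8 difference of 0.66 (standard error 0.39, adjusted p = 0.376) was not called, while that over all days was, at 0.71 (standard error 0.18, adjusted p = 0.00456).

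Of the enzymes that reduce peroxides, 1 was highest on day 8 in both strains. The peroxidase gene PERO stood at 1546, 2934 and 1891 normalised counts in ASM and at 2530.1, 2616 and 2903 in ESM pupae of day 8. On day 1 it averaged 234 ± 366 in ASM, with 1 pupa at 656, and 85.5 ± 110 in ESM pupae (SD, n = 3), where the catalases were at or near 0. On day 5 it averaged 32.2 ± 32.8 in ASM and 11.0 ± 10.4 in ESM pupae (SD, n = 3). It rose by 9.74 VST units from day 5 to 8 (standard error 0.94, adjusted p = 7.36e-09) and fell again from day 8 to 11 (adjusted p = 2.85e-07), to means of 36.7 in ASM and 39.8 in ESM pupae. Its strain difference on day 8 was -0.39 (standard error 1.32, adjusted p = 0.925), with overlapping groups.

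Peroxidasin, a heme peroxidase that crosslinks collagen IV of basement membranes, was higher in ASM pupae over all days (PXDN, difference 1.11, standard error 0.13, adjusted p = 7.39e-07). Its means were 748 ± 92.8 in ASM and 367 ± 58.9 in ESM pupae of day 1 (SD, n = 3), and 422 ± 44.7 and 316 ± 32.3 on day 8 (SD, n = 3). Peroxiredoxin-6, which reduces hydrogen peroxide and lipid peroxides, was lower in ASM pupae (PRDX6, difference -0.44, standard error 0.15, adjusted p = 0.0354), but lost the call when any one of 16 of the 30 libraries was left out (adjusted p up to 0.0678). Its day 8 means were close, at 46.3 ± 4.32 in ASM and 43.8 ± 9.74 in ESM pupae (SD, n = 3). The nitric oxide synthase-like gene (NOSL) rose by 3.32 from day 5 to 8 in the mean of both strains (standard error 0.48, limma, adjusted p = 5.51e-06). On day 8 it reached 116 ± 52.9 in ASM and 57.4 ± 14.8 in ESM pupae (SD, n = 3). On day 11 the order was reversed, at 50.1 ± 18.3 in ASM and 150 ± 54.7 in ESM pupae (SD, n = 3). Averaged over all days, NOSL was not called between the strains (difference -0.03, standard error 0.30, adjusted p = 0.951). Variation of its strain difference over days was not called either (moderated F test of limma, adjusted p = 0.138).

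**Figure D4:**
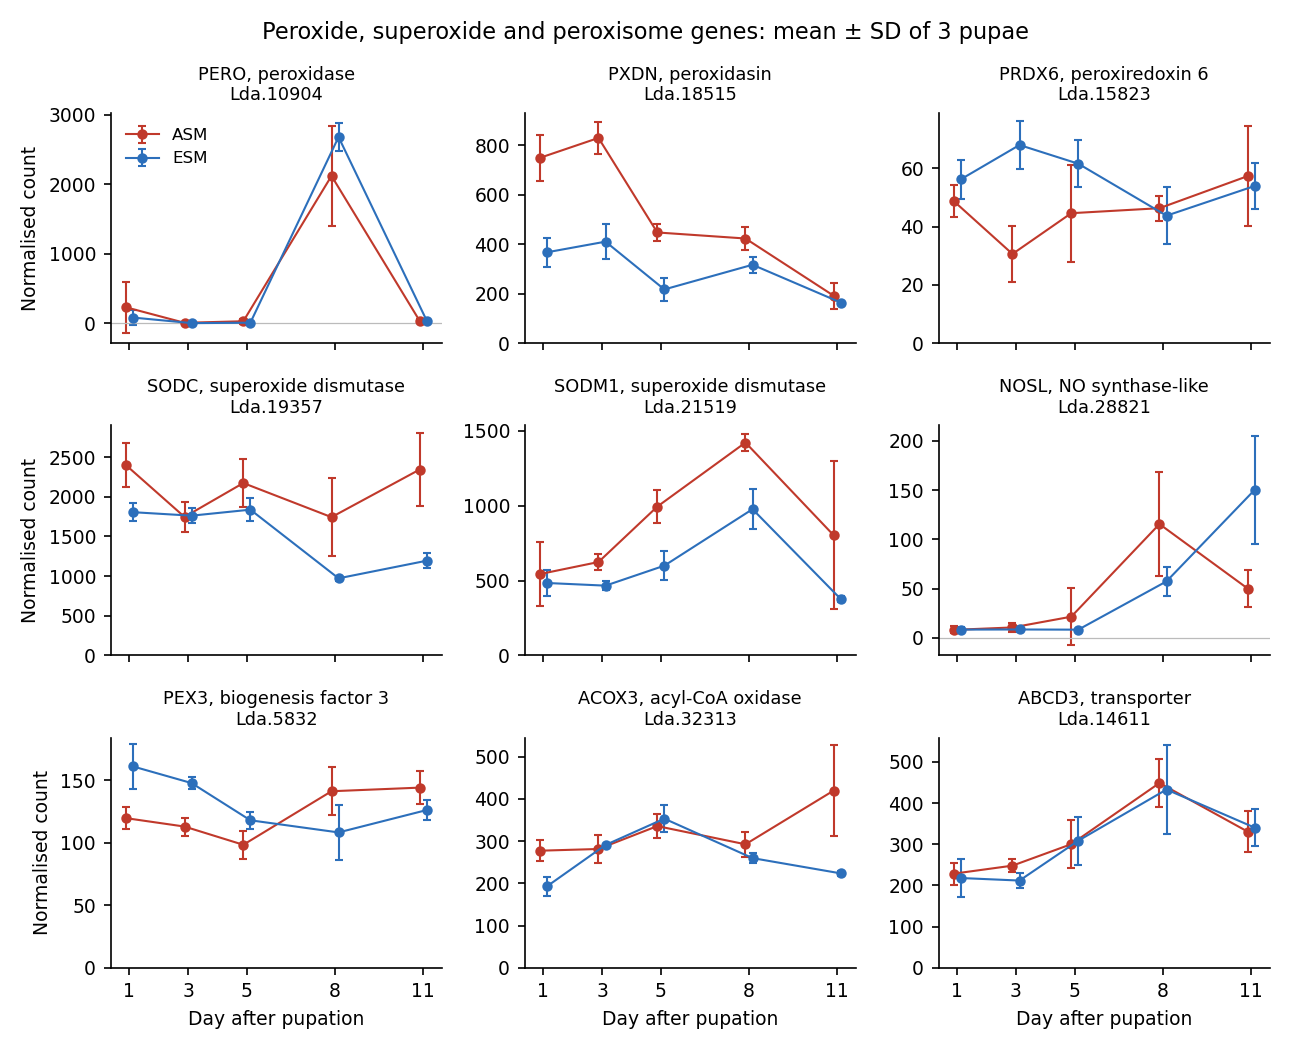
Mean normalised count ± SD of 3 pupae against the day after pupation for 6 genes of peroxide and superoxide metabolism and 3 peroxisome genes, ASM in red and ESM in blue. Peroxidase peaks on day 8 in both strains, the SODC mean is higher in ASM on all days but day 3, and the peroxisome genes are read on all 5 days.

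The 3 peroxisome genes listed were read in every group, unlike the catalases described here, which were chosen for high levels on day 8. Whether other catalase genes were read on other days was not examined. PEX3, which acts in the assembly of peroxisomal membranes, averaged 98.3 to 161 normalised counts over the 10 groups. ACOX3, a peroxisomal acyl-CoA oxidase of the kind that releases hydrogen peroxide, averaged 193 to 419.9 and was higher in ASM over all days (difference 0.47, standard error 0.11, adjusted p = 0.00212). ABCD3, a transporter that brings fatty acids into peroxisomes, averaged 449 ± 58.6 in ASM and 433 ± 107 in ESM pupae of day 8 (SD, n = 3). None of the 3 was called between the strains on day 8. At that step of development, from day 5 to 8, ABCD3 rose (0.82, standard error 0.21, adjusted p = 0.00356) and ACOX3 fell (-0.51, standard error 0.17, adjusted p = 0.0173). The call of ACOX3 was lost without ASM replicate 3 of day 8 (adjusted p = 0.0552).

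Iron and heme genes are set beside the catalases because catalase carries heme and the diets differed in iron. The ferritin subunit (FRI), which stores iron, was higher in ASM pupae over all days (difference 0.32, standard error 0.06, adjusted p = 0.000766). On day 8 it stood at 3683, 4665 and 3115 normalised counts in ASM and at 3101, 3309 and 2478 in ESM pupae, with overlapping groups. Porphobilinogen deaminase (HEM3), an enzyme of heme synthesis, was lower in ASM pupae (-0.43, standard error 0.08, adjusted p = 0.00061), at 431 ± 34.9 against 545 ± 74.0 on day 8 (SD, n = 3). The part of dietary iron in these levels or in those of the catalases was not tested.

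Of the remaining genes of this list, none was called between the strains with all libraries. The ferric-chelate reductase homolog (FRRS1) fell from day 5 to 8 (-2.20, standard error 0.32, adjusted p = 4.42e-06). NADP-dependent malic enzyme (MAOX) was read at most at 8.44 normalised counts in a pupa of day 8. Transaldolase (TALDO), an enzyme of the pentose phosphate pathway, averaged 636 ± 113 in ASM and 519.5 ± 55.8 in ESM pupae of day 8 (SD, n = 3).

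**Figure D5:**
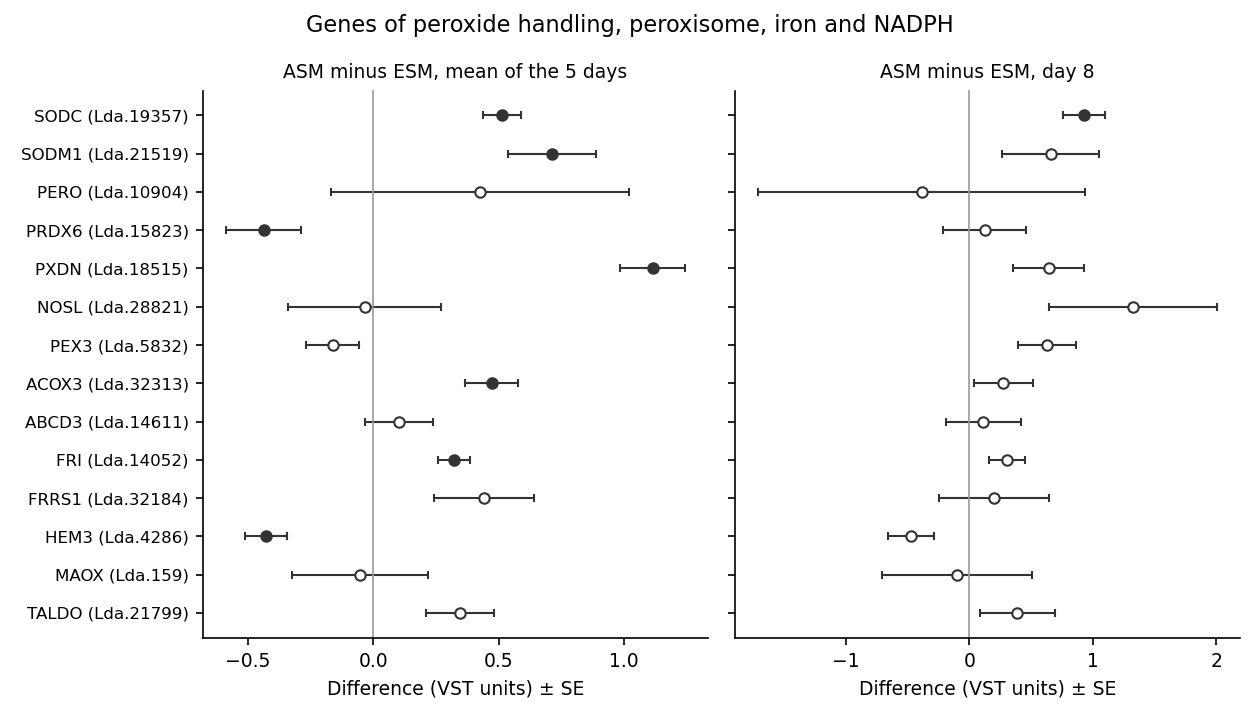
Difference of ASM minus ESM in VST units, with its standard error, for the 14 genes of peroxide handling, peroxisomes, iron, heme and NADPH, averaged over the 5 days (left) and on day 8 (right). Filled points were called at an adjusted p under 0.05. There are 7 filled points over all days, 5 of them to the right of 0, and 1 on day 8, SODC.

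At the step from day 5 to 8, 7 of the 14 genes were called, 4 rising and 3 falling, beside 37.5% of all genes tested. From day 8 to 11, 4 were called, 1 rising and 3 falling, beside 15.3% of all genes. The 3 that fell were peroxidase, peroxidasin (-1.75, standard error 0.20, adjusted p = 5.16e-07) and SODM1 (-1.58, standard error 0.28, adjusted p = 0.000183), while SODC rose (0.41, standard error 0.12, adjusted p = 0.0209). The median library value was 0.12 VST units higher on day 8 than on day 5 and 0.12 lower on day 11 than on day 8. With all libraries set to the same median, the rise of SODM1 from day 5 to 8 (0.78, standard error 0.28, adjusted p = 0.0304) was not called (0.66, adjusted p = 0.0740). With the same setting, the share of rising genes among all those called from day 8 to 11 was 55.3% in place of 41.0%.

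A strain difference that varied over the days was called in 3 of the 14 genes, SODC, ACOX3 and PEX3, beside 3.65% of all genes. All 3 calls were lost when voom was applied to recovered reads (adjusted p = 0.0644, 0.0540 and 0.0708). SODC averaged 1746 ± 185 in ASM and 1762 ± 98.0 in ESM pupae of day 3, and 2344 ± 463 and 1195 ± 95.5 on day 11 (SD, n = 3). ACOX3 differed most on day 11, at 419.9 ± 107 in ASM and 224 ± 5.71 in ESM pupae (SD, n = 3). PEX3 was lower in ASM pupae of day 1, at 119.6 ± 9.02 against 161 ± 18.3, and higher on day 8, at 141 ± 19.2 against 108 ± 21.6 (SD, n = 3).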

How the data were processed

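RNA of 30 whole female pupae was sequenced as single libraries (polyadenylated RNA, Ion Proton). Per the labels and the study's methods, read quality was checked by the authors (FastQC 0.11.5) and ends were trimmed (Trimmomatic 0.36) before alignment to the ASM genome. Gene models came from StringTie and counts from featureCounts 2.0.0. The authors deposited variance-stabilised values (DESeq2 1.28.1, R 4.0.2), and differences of these are not log2 fold changes. The deposited table has 19654 genes and no read counts. Whole reads were recovered from the steps of the values: 99.9 to 100% of values per library came out within 0.05 of a whole number, and 78 values, all of 43793 reads or more, did not. Recovered size factors were 0.445 to 2.06. The recovery and the fits were tested on simulated data.

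Differences were tested with limma 3.58.1 (R 4.3.3) on the deposited variance-stabilised values, fitting 10 group means with trend-moderated variances. Benjamini-Hochberg adjustment ran over 19652 genes, leaving out those that exceeded -0.516, the value of a count of 0, in fewer than 3 libraries. A test on transformed values was used because the deposited unit is not a count. Permutations and summaries used Python 3.11.15, numpy 2.4.6, pandas 2.3.3, scipy 1.17.1 and matplotlib 3.10.9. In the study, eggs of many females were mixed within each population, and the labels do not say which pupae were siblings. The limma p-values set differences of group means against the spread between pupae within groups. With a single colony per strain, they do not cover variation between colonies.

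Named were both catalases, the lists of pathway, cuticle and qPCR reference genes, the 10 genes most correlated with the catalases, the 5 most correlated described genes, and genes with identifiers within 10. Members and lists were chosen with earlier results of these data known. Other filters, scalings, a voom fit, a replicate block and single libraries left out were tried. Descriptions come from the study's lists of candidate genes and expression results, and cover 617 of the genes measured. Genes other than the catalases are given by their annotated name or symbol. Catalase sequences were not used here, and 1 further pathway gene is not reported here.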

Additional observations from a re-analysis of the deposited data

Results flagged for a closer look

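Among the pathway genes, 3 had a strain difference that varied over the sampling days by the moderated F test of limma: SODC (adjusted p = 0.0284), ACOX3 (adjusted p = 0.0198) and PEX3 (adjusted p = 0.0384). SODC was the one also called between the strains on day 8. The call of PEX3 was lost when any one of 16 of the 30 libraries was left out (adjusted p up to 0.0933), and PEX3 had been chosen by the study on its pupal expression. The call of SODC was lost when any one of 5 libraries was left out (adjusted p up to 0.0678). The call of ACOX3 held without each single library (adjusted p up to 0.0450) but was lost with voom (adjusted p = 0.0540).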

How the results depend on the processing

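The catalase ratios of ASM to ESM on day 8 kept their direction under every alternative run. For the peroxisomal catalase gene the ratio of 15.3 became 79.5 with medians and 10.6 to 88.6 with single day 8 libraries left out, the highest without ESM replicate 2. For the catalase-like gene it was 167, and 147 with reads scaled to library totals, 175 with size factors from the 4 qPCR reference genes (of which Ef1g was itself higher in ASM on day 8, by 0.61 VST units, adjusted p = 0.00636) and 70.0 to 311 with single libraries left out. Genes called on day 8 fell from 1249 to 693 when only the 13565 genes above the lowest value in all libraries were tested, and were 669 to 1484 with single libraries left out. Genes with a strain difference varying over days fell from 718 to 325 with that filter and to 293 with voom, and were 469 (without ESM replicate 2 of day 3) to 1216 (without ESM replicate 3 of day 3) with single libraries left out. With voom the calls of SODC, ACOX3 and PEX3 in that test were lost (adjusted p = 0.0644, 0.0540 and 0.0708). Of 22 calls of pathway genes, 15 held under every alternative, none changed direction, and 6 were lost without some library. Calls were also gained: ABCD3 from day 8 to 11 with voom (adjusted p = 0.0408), TALDO between the strains without any one of 5 libraries (adjusted p = 0.0138 to 0.0450) and FRRS1 without ESM replicate 1 of day 5 (adjusted p = 0.0398). The rise of SODM1 from day 5 to 8 was lost without any one of 6 libraries (adjusted p up to 0.0808) and that of SODC from day 8 to 11 without any one of 4 (adjusted p up to 0.0721).

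The labels number the replicates 1 to 3 in every group. Over 13565 genes, 15 same-numbered ASM and ESM pairs of a day had correlations of deviations from -0.25 to 0.42 (median 0.03, 6 over 0.1), and 30 pairs of other numbers -0.53 to 0.26 (median -0.05, 9 over 0.1), so the numbers were not taken to pair pupae. With the replicate block, 4585 genes were called over all days, 1272 on day 8, 736 for the variation over days, 7378 from day 5 to 8 and 3003 from day 8 to 11, no call of a pathway gene was lost and that of ABCD3 from day 8 to 11 was gained (adjusted p = 0.0372), and r of the catalases was 0.66 (permutation p = 0.116). The limits for genes read on day 8 only, 25 genes, were changed after seeing the data: 28 genes with a minimum of 50, 19 with 200 and 33 with a maximum of 10, each with both catalases. Depth limits the low groups, where 3 reads or fewer cannot be told from 0.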

Other observations

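Takeout, a member of an insect family of secreted juvenile hormone binding protein homologs, was named by the study in the group of genes that holds the catalases, but had no reads in the 6 pupae of day 8. It was read on day 1, at 2302 ± 2289 normalised counts in ASM and 529 ± 344 in ESM pupae (SD, n = 3). On day 3 it averaged 66.5 ± 70.8 in ASM (SD, n = 3), and no read was found in ESM pupae. Tweedle motif 2, a cuticle protein also named there, had the order of pupae seen for the catalase-like gene on day 8. It stood at 4121, 2693 and 434 in ASM and 0, 51.7 and 1.41 in ESM pupae. Unlike the catalases, it already averaged 2051 in ASM and 3111 in ESM pupae of day 5. Of the genes described as zonadhesin, one stood at 293, 394 and 107 in ASM and at 30.4, 39.0 and 30.9 in ESM pupae of day 8, and the other at 225, 283 and 78.1 in ASM and at 24.3, 29.2 and 21.1 in ESM pupae, both with replicate 2 the highest ASM pupa.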
